A study of Homo sapiens with 9 samples.

Results

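Genes that carry small RNAs inside a long noncoding transcript, and 4 long noncoding genes known by name, were examined in RNA-seq of MDA-MB-231 cells in which ASAH1 had been knocked down. ASAH1 encodes acid ceramidase, the lysosomal enzyme that cleaves ceramide. MDA-MB-231 is an established line of human breast cancer cells that lack hormone receptors and have a mesenchymal character. The members were chosen by symbol: the SNHG genes, the genes named MIR...HG, GAS5, ZFAS1, DANCR, MALAT1, NEAT1, MEG3 and H19. This gave 65 of the 26485 genes in the tables, of which 24 are snoRNA hosts, 37 are microRNA hosts and 4 are others. The 9 libraries fall into 3 groups of 3: control cells with a nonspecific (NS) shRNA, cells with ASAH1 shRNA #1, and cells with ASAH1 shRNA #2. All libraries thus share the cell line and an expressed hairpin, and each ASAH1 shRNA is 1 sequence against the gene. The libraries are described as biological replicates and not as separately derived lines, so p-values measure the spread between these libraries. Both ASAH1 shRNAs were set against the same 3 NS shRNA libraries, and the 2 comparisons are therefore not independent of each other.

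Small nucleolar RNAs (snoRNAs) guide the modification and processing of ribosomal and other RNAs. Most human snoRNAs are cut from the introns of a host transcript, and in SNHG genes the spliced exons encode no known protein. Several of these host transcripts, GAS5 among them, begin with a run of pyrimidines like the mRNAs of ribosomal proteins, and their spliced RNA is removed by nonsense-mediated decay when it is translated. MicroRNA host genes instead give a primary transcript from which Drosha and DGCR8 release a hairpin, so the RNA counted on the gene and the mature microRNA can change separately. MALAT1 and NEAT1 are abundant nuclear RNAs, of speckles and paraspeckles respectively. MALAT1 and the long form of NEAT1 end without a poly(A) tail, and MEG3 and H19 are imprinted genes.

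The microRNAs encoded in the 3 microRNA hosts that changed with both hairpins are shown first, since these are the small RNAs that the hosts carry. They are RefSeq mature sequences with the seed, bases 2 to 8, in capitals, and they were not themselves measured by these libraries. MIR17HG on chromosome 13 carries the miR-17-92 cluster in introns. MIR22HG on chromosome 17 carries miR-22 in an exon, and MIR210HG on chromosome 11 carries miR-210 in an intron.
miR-17-5p: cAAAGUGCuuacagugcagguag
miR-20a-5p: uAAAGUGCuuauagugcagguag
miR-18a-5p: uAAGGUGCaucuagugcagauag
miR-19a-3p: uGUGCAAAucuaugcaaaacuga
miR-19b-3p: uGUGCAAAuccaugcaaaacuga
miR-92a-3p: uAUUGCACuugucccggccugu
miR-22-3p: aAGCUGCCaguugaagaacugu
miR-210-3p: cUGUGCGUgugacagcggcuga
The seed AAAGUGC is shared by miR-17-5p and miR-20a-5p, and GUGCAAA by miR-19a-3p and miR-19b-3p. MIR17HG therefore encodes 4 seeds among the arms shown.

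Of the snoRNA hosts whose values are given library by library below, the bases around the annotated start are shown because some transcripts of this kind begin with a pyrimidine run. Each line holds 10 bases before the start and 30 from it in GRCh38.p14 (RefSeq), 5′ to 3′ on the gene's strand. Capitals mark a run, beginning at the start itself, of a C followed by at least 4 bases that are each C or T.
GAS5, chr1:173869016-173869055, minus strand: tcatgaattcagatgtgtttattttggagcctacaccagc
SNHG1, chr11:62855856-62855895, minus strand: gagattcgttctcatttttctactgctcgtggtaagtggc
ZFAS1, chr20:49278632-49278671, plus strand: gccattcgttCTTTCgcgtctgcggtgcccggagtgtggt
SNHG17, chr20:38435299-38435338, minus strand: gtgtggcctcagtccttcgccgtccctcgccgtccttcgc
SNHG3, chr1:28505933-28505972, plus strand: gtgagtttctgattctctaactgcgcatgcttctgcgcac
SNHG8, chr4:118278752-118278791, plus strand: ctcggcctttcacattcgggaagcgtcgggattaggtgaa
SNHG12, chr1:28581844-28581883, minus strand: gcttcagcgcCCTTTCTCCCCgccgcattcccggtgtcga
SNHG4, chr5:139274091-139274130, plus strand: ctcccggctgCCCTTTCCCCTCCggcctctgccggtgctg
SNHG18, chr5:9546190-9546229, plus strand: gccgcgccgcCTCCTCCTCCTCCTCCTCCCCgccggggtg
DANCR, chr4:52712384-52712423, plus strand: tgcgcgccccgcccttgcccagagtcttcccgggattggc
A run of this kind stood at the start in 6 of 19 snoRNA host windows (31.6%), against 4.07% of all 35116 windows in the table. Besides ZFAS1, SNHG12, SNHG4 and SNHG18, the hosts with a run were SNHG5 and SNHG19. A match is a description of the letters at 1 annotated start, and a window with no match says only that the letters are not at that position. The GAS5 and SNHG3 windows lie outside the GENCODE spans of these genes and do not show the starts placed there. Among microRNA hosts 2 of 41 windows had one (4.88%). The E-box CACGTG, searched on both strands of the whole 300-base windows, lay in 1 snoRNA host window (SNHG7, 5.26% against 7.26% of all windows). TGATGNAA, the element bound by ATF4 with C/EBP factors, lay in 0 of the 19 and in 3.62% of all windows.

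The libraries held between 23806003 and 49659106 reads on genes. ASAH1 itself had log2 fold changes of -1.76 with shRNA #1 (standard error 0.05, adjusted p = 9.49e-09) and -2.63 with shRNA #2 (standard error 0.06, adjusted p = 5.42e-10, both limma). VIM and CD44, high in mesenchymal breast cancer cells, were at 1174 CPM (reads scaled to an equal library total) or more and 656 CPM or more in every library. The estrogen and progesterone receptor genes ESR1 and PGR had at most 2 reads in any library, and the blood markers PTPRC, CD3E and HBB at most 8. EPCAM, for which a low level was foreseen, was at 21.3 to 35.7 CPM. The fibroblast marker COL1A1 was at 14.6 to 26.9 CPM, so it was not absent. Values below are normalized counts, that is, reads divided by 1 size factor per library, set separately for each hairpin's table. A gene was tested where its mean was at least 10 in the 6 libraries of the comparison, by limma on log2(normalized count + 1), with Benjamini-Hochberg adjustment over all genes tested and a threshold of 0.05.

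Of the 65 members, 36 could be tested in each comparison: 22 snoRNA hosts, 12 microRNA hosts, MALAT1 and NEAT1. The filter removed SNHG22, which had at most 5 reads in a library, and SNHG24, which had 0 in all. It also removed 25 microRNA hosts, of which 11 had 0 reads in every library (MIR124-2HG, MIR133A1HG, MIR143HG, MIR202HG, MIR205HG, MIR3663HG, MIR381HG, MIR3976HG, MIR4500HG, MIR7515HG and MIRLET7DHG). The other 14, with at most 13 reads in a library, were MIR1-1HG, MIR137HG, MIR155HG, MIR181A1HG, MIR2052HG, MIR217HG, MIR31HG, MIR325HG, MIR4697HG, MIR497HG, MIR663AHG, MIR670HG, MIR7-3HG and MIR99AHG. H19 had 0 reads in all 9 libraries, and MEG3 had 3 reads in all 9 together and at most 1 in a library. A count of 0 allows up to 3 reads per library, which is 0.0604 CPM in the deepest library and 0.126 CPM in the shallowest, for counting error only.

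With shRNA #1, 11 of the 22 tested rose, 2 fell (SNHG6 and SNHG18) and 9 did not pass, with a median log2 fold change of 0.59, while 32.8% of all 14341 genes tested rose and 33.3% fell (66.1% in either direction). With shRNA #2, 13 rose, 2 fell (SNHG19 and SNHG21) and 7 did not pass, with a median of 0.68, against 33.5% of 14250 genes that rose and 33.4% that fell (66.9% in either direction). The medians of all genes tested were 0.00 and 0.01. In both comparisons 9 snoRNA hosts rose: SNHG15, SNHG1, GAS5, ZFAS1, SNHG17, SNHG3, SNHG8, SNHG12 and SNHG4. The values of the hairpin and NS shRNA libraries did not overlap for 13 of the 22 with shRNA #1 (59.1%, against 69.2% of all genes tested) and for 15 with shRNA #2 (68.2%, against 70% of all genes), shares below those of all genes.

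**Figure D1:**
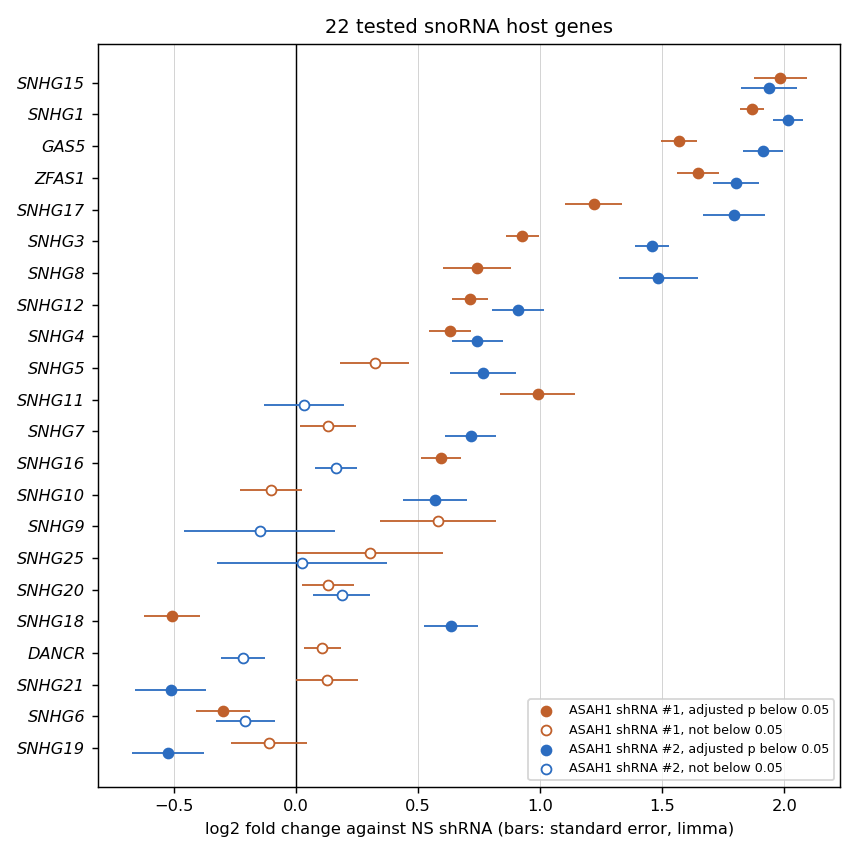
Log2 fold change against NS shRNA (horizontal axis) of the 22 tested snoRNA host genes, ordered by the mean of both values, with the standard error from limma as bars. Filled points passed an adjusted p of 0.05, open points did not. SNHG15, SNHG1, GAS5 and ZFAS1 stand highest with both hairpins, at 1.57 or more, and SNHG18 lies on opposite sides of 0.

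GAS5, named for its accumulation in growth-arrested cells, lies on chromosome 1 (173858559 to 173868882, minus strand, hg38) and holds 11 snoRNAs. Its normalized counts were 3280, 3074 and 2708 with NS shRNA and 8642, 8683 and 9532 with shRNA #1. In the shRNA #2 table they were 3539, 3337 and 2920 with NS shRNA and 11799, 11639 and 13448 with the hairpin. Every hairpin library lay above every NS shRNA library, and the means were 2.97-fold and 3.77-fold apart. The log2 fold changes were 1.57 (standard error 0.07, adjusted p = 1.69e-07) with shRNA #1 and 1.91 (standard error 0.08, adjusted p = 3.18e-08) with shRNA #2, both from limma.

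SNHG1, on chromosome 11 (62851978 to 62855953, minus strand), carries 6 C/D box snoRNAs in its introns by the GENCODE entries used, among them SNORD25 to SNORD28. It had 2855, 2592 and 2651 with NS shRNA against 9927, 9882 and 9771 with shRNA #1. The shRNA #2 table held 3081, 2813 and 2858 with NS shRNA against 11429, 12601 and 11360. Its replicates lay close together within each group and far apart between groups, with log2 fold changes of 1.87 (standard error 0.05, adjusted p = 6.85e-09) and 2.01 (standard error 0.06, adjusted p = 5.51e-09, limma). SNHG1 starts 51 bases from SLC3A2, the heavy chain of several amino acid transporters, which is read from the other strand and rose by 1.80 and 1.28 on the log2 scale (adjusted p = 2.70e-08 and 3.36e-07, limma).

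ZFAS1, on chromosome 20 (49278178 to 49299600, plus strand), was named as an antisense transcript at the start of ZNFX1 and holds the SNORD12 family. With NS shRNA it had 2317, 2191 and 1836, and with shRNA #1 6275, 6494 and 7043. Beside shRNA #2 the NS shRNA values were 2500, 2379 and 1980 and the hairpin values 7526, 7558 and 8804. The groups did not overlap, and the log2 fold changes were 1.65 (standard error 0.08, adjusted p = 2.96e-07) and 1.80 (standard error 0.09, adjusted p = 1.02e-07, limma). ZNFX1 itself rose less, by 0.73 and 0.34 (adjusted p = 1.51e-05 and 0.00238, limma), and counting was strand-specific.

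SNHG15, on chromosome 7 (44983019 to 44986961, minus strand), is the host of SNORA9. Its values were 908, 881 and 708 with NS shRNA and 3045, 3091 and 3741 with shRNA #1, then 980, 957 and 764 against 3382, 3013 and 3947 with shRNA #2. All hairpin values were more than 3 times the highest NS shRNA value of their table. The log2 fold changes, 1.98 (standard error 0.11, adjusted p = 4.12e-07) and 1.94 (standard error 0.11, adjusted p = 2.50e-07, limma), were nearly equal. SNORA9 overlaps an exon of SNHG15, so reads that fall on both genes may have been left uncounted.

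**Figure D2:**
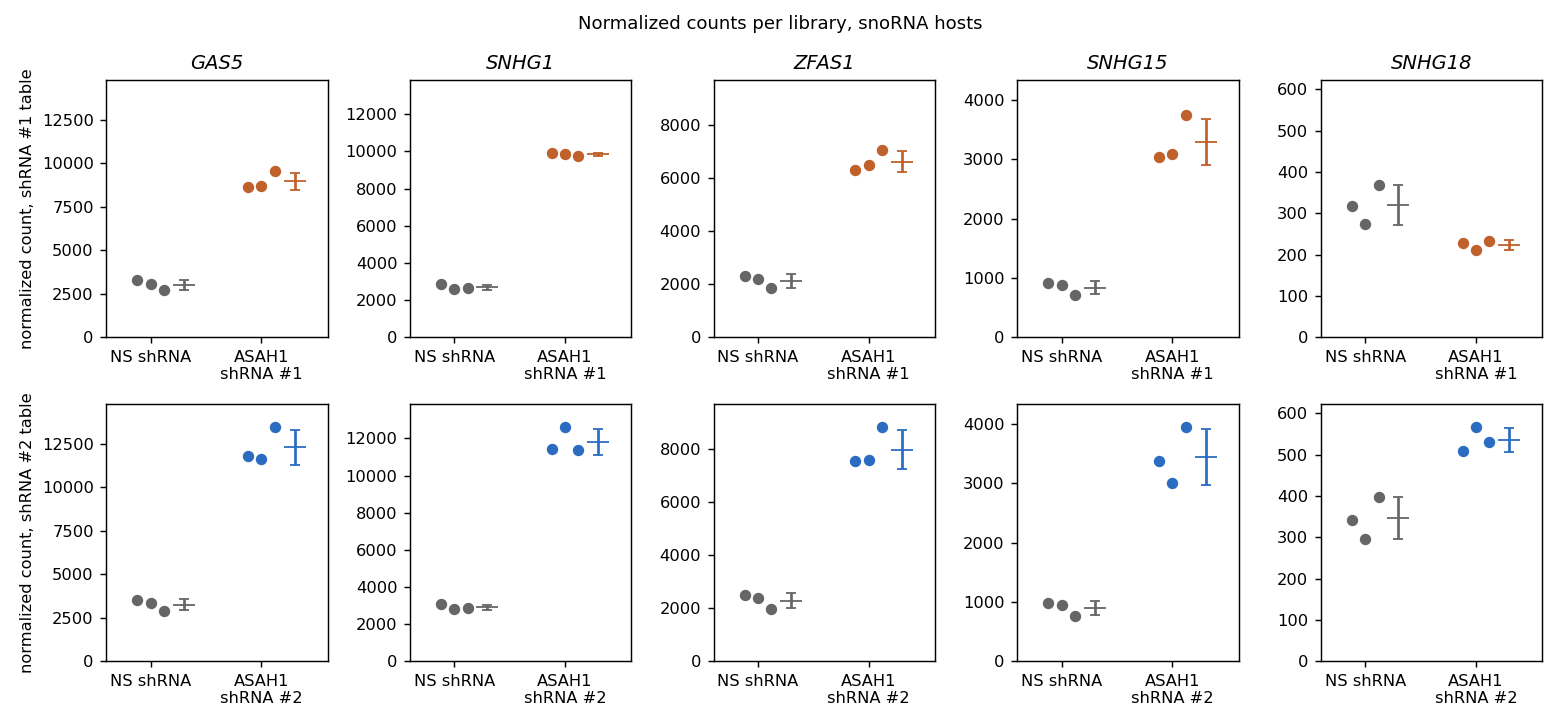
Normalized counts per library (vertical axes from 0, points) of GAS5, SNHG1, ZFAS1, SNHG15 and SNHG18, with the mean and SD of 3 libraries beside them. The upper row is the shRNA #1 table and the lower row the shRNA #2 table. The hairpin points lie above the NS shRNA points for the first 4 genes in both rows, while SNHG18 lies below with shRNA #1 (210 to 233) and above with shRNA #2 (509 to 567).

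SNHG17, SNHG3 and SNHG8 rose with both hairpins and were higher with shRNA #2 than with shRNA #1, by 0.57, 0.52 and 0.74 on the log2 scale (adjusted p = 0.00138, 2.26e-05 and 0.00240, edgeR). SNHG17, host of SNORA71A to SNORA71D, had 845, 672 and 592 with NS shRNA and 1581, 1554 and 1733 with shRNA #1. In the shRNA #2 table SNHG17 had 911, 730 and 638 with NS shRNA against 2466, 2396 and 3009. Its groups were separate in both tables, with log2 fold changes of 1.22 (standard error 0.12, adjusted p = 1.28e-05) and 1.79 (standard error 0.13, adjusted p = 8.28e-07, limma). SNHG3, host of SNORA73A and SNORA73B, which act in the processing of 18S ribosomal RNA, had 1754, 1728 and 1493 against 3097, 3125 and 3218, and 1893, 1876 and 1610 against 4876, 4974 and 4884. These values rose by 0.93 (standard error 0.07, adjusted p = 2.33e-06) and 1.46 (standard error 0.07, adjusted p = 6.61e-08, limma), again without overlap. SNHG8, host of SNORA24, had 1454, 1455 and 1054 against 1863, 2205 and 2546, and 1569, 1580 and 1137 against 3860, 3209 and 4997. The spread was wider here, but the lowest hairpin value still exceeded the highest NS shRNA value, at 0.74 (standard error 0.14, adjusted p = 0.00118) and 1.49 (standard error 0.16, adjusted p = 1.51e-05, limma).

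SNHG12 and SNHG4 rose with both hairpins, and their log2 ratios of shRNA #2 to shRNA #1, 0.20 (standard error 0.09) and 0.10 (standard error 0.09), did not pass (adjusted p = 0.0834 and 0.342, edgeR), though that of SNHG12 did without shRNA #2 replicate 2 (0.28, adjusted p = 0.0142). SNHG12, whose introns hold SNORA16A, SNORA44, SNORA61 and SNORD99, had 376, 363 and 338 with NS shRNA against 606, 587 and 575, and 405, 394 and 364 against 712, 644 and 845. The log2 fold changes were 0.71 (standard error 0.07, adjusted p = 2.05e-05) and 0.91 (standard error 0.10, adjusted p = 2.48e-05, limma). SNHG4, host of SNORA74A, had 177, 169 and 183 against 267, 273 and 279, and 191, 183 and 197 against 321, 350 and 289. It rose by 0.63 (standard error 0.09, adjusted p = 0.000149) and 0.74 (standard error 0.10, adjusted p = 0.000104, limma), and neither gene's groups overlapped.

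SNHG18, host of SNORD123 on chromosome 5 (9546170 to 9550725, plus strand), moved in opposite directions. It had 318, 274 and 369 with NS shRNA and 227, 210 and 233 with shRNA #1, and 343, 297 and 398 with NS shRNA against 509, 567 and 531 with shRNA #2. All shRNA #1 libraries lay below and all shRNA #2 libraries above the NS shRNA libraries of their table. SNHG18 thus had a log2 fold change of -0.51 with shRNA #1 (standard error 0.12, adjusted p = 0.00356) and of 0.64 (standard error 0.11, adjusted p = 0.000474) with shRNA #2, both limma. Its divergent neighbour SEMA5A, a semaphorin that starts 95 bases away, had -0.29 (adjusted p = 0.167) and 1.03 (adjusted p = 0.000195, limma).

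DANCR, a noncoding RNA first described as a brake on cell differentiation and the host of SNORA26, did not pass in either comparison. It had 991, 976 and 1067 with NS shRNA and 1209, 1030 and 1041 with shRNA #1, and 1069, 1060 and 1151 against 900, 1080 and 856 with shRNA #2. The groups overlapped in both tables, with log2 fold changes of 0.11 (adjusted p = 0.232) and -0.22 (adjusted p = 0.0569, limma). The latter passed at -0.32 without shRNA #2 replicate 2 (adjusted p = 0.00454) and at -0.26 with upper quartile scaling (adjusted p = 0.0279, limma).

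The remaining snoRNA hosts passed with 1 hairpin or with neither. SNHG11 (0.99, adjusted p = 0.000358) and SNHG16 (0.60, adjusted p = 0.000162) rose with shRNA #1, where their log2 fold changes with shRNA #2 were 0.03 and 0.16 (adjusted p = 0.867 and 0.112, limma). SNHG5 (0.77), SNHG7 (0.72) and SNHG10 (0.57) rose with shRNA #2 (adjusted p = 0.000492, 0.000137 and 0.00284, limma) and had 0.32, 0.13 and -0.10 with shRNA #1. SNHG5 with shRNA #1 passed once NS shRNA replicate 1 (0.43) or shRNA #1 replicate 1 (0.44) was left out, and SNHG16 with shRNA #2 passed without NS shRNA replicate 1 (0.25). SNHG19 (-0.52, adjusted p = 0.00968) and SNHG21 (-0.51, adjusted p = 0.0101) fell with shRNA #2, with -0.11 and 0.13 for shRNA #1 (limma). SNHG6 fell by 0.30 with shRNA #1 (adjusted p = 0.0382, limma) although its groups overlapped, and the call was lost without NS shRNA replicate 1 or 2 or shRNA #1 replicate 1 or 2, at -0.31 to -0.19. SNHG9, SNHG20 and SNHG25 passed in neither comparison, with log2 fold changes of 0.58, 0.13 and 0.30 for shRNA #1 and -0.15, 0.19 and 0.03 for shRNA #2. SNHG9 passed with shRNA #1 without NS shRNA replicate 2 (0.71), in limma without a trend (0.58) and with a pseudocount of 5 (0.51), and SNHG6 with shRNA #2 without NS shRNA replicate 3 (-0.34).

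By the start sequences above, the 6 tested snoRNA hosts with a pyrimidine run had a median log2 fold change of 0.48 with shRNA #1 (3 rose, 1 fell) and 0.75 with shRNA #2 (5 rose, 1 fell). The 12 tested hosts with a window but no run there had medians of 0.67 (7 rose, 0 fell) and 0.64 (7 rose, 1 fell). SNHG15, SNHG6, SNHG9 and SNHG25 had no window. GAS5 and SNHG3 are counted among the 12 without a run. The RefSeq starts used here lie outside the GENCODE spans of both genes, so the bases at their GENCODE starts were not scored.

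The snoRNA rows inside the hosts were thinly covered. The snoRNA hosts held 53 annotated entries of snoRNAs and 5 of scaRNAs (the Cajal body relatives of snoRNAs). These are from GENCODE, except that those of GAS5 were taken from RefSeq, which gave no strand. The loci of SNORD60, SNORA50C and SNORA17A were each entered again under another name, so distinct snoRNAs are fewer. Of the rows of these entries, 28 could be tested with shRNA #1 and 30 with shRNA #2. With shRNA #1, 8 of the 28 rose and 0 fell by limma, with a median log2 fold change of 0.43, and with shRNA #2, 18 of 30 rose and 0 fell, with a median of 0.87. Of all genes tested, 32.8% and 33.5% rose and 33.3% and 33.4% fell. With shRNA #1 the share of these rows that rose thus did not exceed that of all genes. At an unadjusted p below 0.05, 1 was lower with shRNA #1 and 0 with shRNA #2, while edgeR called 8 and 20 higher, DESeq2 7 and 18, and both called 0 lower. Of all 98 snoRNA and scaRNA rows tested, 19 rose (19.4%) and 1 fell (1.02%) with shRNA #1. With shRNA #2, 42 rose (42.9%) and 2 fell (2.04%). The log2 fold change of the small RNA row was smaller than that of its host in 23 of 28 and 24 of 30 cases. With single libraries left out, the calls of SNORA16A, SNORA9 and SNORA73A with shRNA #1 and of SNORA9, SNORA24, SNORA26, SNORD22, SNORD74, SNORD78 and SNORD99 with shRNA #2 were lost at least once. The sources describe oligo-dT selection as well as ribosomal RNA removal, so these rows are not taken as levels of mature snoRNAs. Reads on them can come from unspliced host RNA, and their share was not tested.

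Within GAS5, 8 snoRNA rows were tested, and all 8 log2 fold changes were smaller than that of the host in both comparisons. SNORD47 had 90.0, 98.1 and 79.4 with NS shRNA and 175, 161 and 196 with shRNA #1, and 97.1, 107 and 85.6 against 187, 197 and 238 with shRNA #2. It rose by 0.99 and 1.09 (adjusted p = 0.000107 and 5.33e-05, limma), while GAS5 rose by 1.57 and 1.91. SNORD76 rose by 0.62 and 1.18 (adjusted p = 0.00299 and 1.38e-05, limma). Within SNHG1, 0 of 6 snoRNA rows passed with shRNA #1 by limma, edgeR or DESeq2 (1 was lower at an unadjusted limma p below 0.05), and 4 of 6 rose with shRNA #2. SNORD26 had 16.7, 20.6 and 17.5 against 13.4, 35.3 and 31.7 with shRNA #1, which overlap, and 18.1, 22.4 and 18.9 against 100, 59.3 and 62.1 with shRNA #2, which do not. SNORD30 of the same host had log2 fold changes of -0.51 and -0.12 (adjusted p = 0.0581 and 0.586, limma).

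SNORA71C in SNHG17 rose from 19.9, 33.4 and 22.2 to 103, 89.2 and 84.6 with shRNA #1, and from 21.5, 36.2 and 23.9 to 290, 206 and 261 with shRNA #2. The log2 fold changes were 1.86 and 3.19 (adjusted p = 5.07e-05 and 5.67e-07, limma), against 1.22 and 1.79 for SNHG17. The SNORA71 copies are alike in sequence, so the split of reads among them is uncertain, and the same holds for SNORA73A and SNORA73B of SNHG3. SNORA73A had 34.5, 68.7 and 44.3 with NS shRNA and 873, 112 and 96.1 with shRNA #1, and SNORA73B had 48.1, 71.6 and 48.9 and then 1090, 188 and 112. shRNA #1 replicate 1 stands far above the other libraries for both. Their log2 fold changes, 2.14 and 2.35, fell to 1.12 and 1.38 without it (adjusted p = 0.00567 and 0.00128, limma), and SNORA73A did not pass without NS shRNA replicate 1 (1.92, adjusted p = 0.0815). SNHG3 itself was even across the 3 shRNA #1 libraries.

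**Figure D3:**
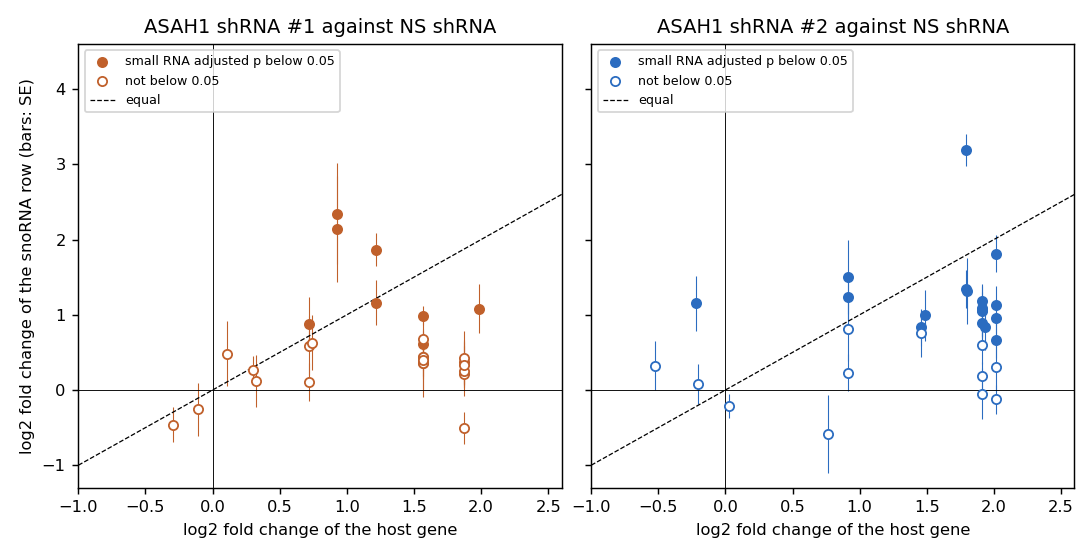
Log2 fold change of each tested snoRNA row (vertical axis, bars are the standard error) against that of its host gene (horizontal axis), with shRNA #1 at left (28 rows) and shRNA #2 at right (30 rows). Filled points passed an adjusted p of 0.05, and the dashed line marks equal change. Most points lie below the line. Those above it include SNORA73A, SNORA73B and SNORA71C at 2.14, 2.35 and 1.86 in the left panel. In the right panel they include SNORA71C at 3.19 and SNORA26 at 1.15, whose host DANCR had -0.22.

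The proteins that bind and assemble snoRNAs were read beside the hosts from a list of 19 genes, all of which were tested. With shRNA #1 15 rose and 1 fell (median log2 fold change 0.40), and with shRNA #2 14 rose and 2 fell (median 0.45). These are 78.9% and 73.7% that rose, against 32.8% and 33.5% of all genes tested, and 5.26% and 10.5% that fell, against 33.3% and 33.4%. Among the C/D box core proteins, NOP58 rose by 1.00 and 0.92, NOP56 by 0.64 and 0.36, and the methyltransferase FBL by 0.31 and 0.49 (adjusted p = 1.15e-07, 1.99e-07, 2.97e-06, 0.000116, 0.0218 and 0.00117 in that order, limma). DKC1, the pseudouridine synthase of H/ACA particles, rose by 0.98 and 1.39 (adjusted p = 1.16e-06 and 5.59e-08, limma). Of the other H/ACA core proteins, GAR1 rose by 0.70 with each hairpin, while NHP2 had -0.24 and -0.20 and passed with neither. NOP10 rose by 0.23 with shRNA #1 and had -0.15 with shRNA #2 (adjusted p = 0.00299 and 0.0812, limma). PIH1D1, an assembly factor, fell by 0.66 and 0.42 (adjusted p = 8.52e-05 and 0.00211, limma). Of 10 genes of nonsense-mediated decay, 6 rose and 1 fell with shRNA #1 and 7 rose and 1 fell with shRNA #2. These are 60% and 70% that rose, against 32.8% and 33.5% of all genes tested. In each comparison 10% fell, against 33.3% and 33.4%. UPF1, the helicase of that pathway, rose by 0.41 and 0.54, and SMG6, its endonuclease, fell by 0.25 and 0.37 (adjusted p = 2.06e-05, 7.99e-06, 0.00211 and 0.000143, limma).

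With shRNA #1, 3 of 12 rose (MIR17HG, MIR22HG and MIR4458HG), 2 fell (MIR210HG and MIRLET7BHG) and 7 did not pass, with a median log2 fold change of 0.06. With shRNA #2, 6 rose (MIR100HG, MIR17HG, MIR181A2HG, MIR22HG, MIR600HG and MIR762HG), 2 fell (MIR210HG and MIR503HG) and 4 did not pass, with a median of 0.41. At 25% and 50% of those tested, the shares that rose stand on either side of the 32.8% and 33.5% over all genes. The 2 that fell in each comparison are 16.7%, against 33.3% and 33.4% of all genes.

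MIR210HG, on chromosome 11 (565657 to 568457, minus strand), hosts miR-210, a microRNA known for its induction in hypoxia. It had 938, 825 and 750 with NS shRNA and 100, 85.9 and 97.0 with shRNA #1, then 1012, 896 and 808 against 518, 437 and 515 with shRNA #2. All hairpin values lay below the NS shRNA values, and those of shRNA #1 the furthest. MIR210HG had a log2 fold change of -3.13 with shRNA #1 (standard error 0.11, adjusted p = 2.59e-08), the largest of any member in either comparison, and -0.88 (standard error 0.10, adjusted p = 2.53e-05) with shRNA #2, both limma.

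MIR22HG, on chromosome 17 (1711447 to 1717174, minus strand), is the host of miR-22, whose hairpin lies in an exon, so reads on both may have been left uncounted. Its normalized counts were 871, 913 and 877 with NS shRNA and 1177, 1161 and 1270 with shRNA #1, then 940, 991 and 946 against 2719, 2641 and 2878 with shRNA #2. It rose with both, by 0.44 (standard error 0.06, adjusted p = 0.000151) and by 1.52 (standard error 0.06, adjusted p = 2.62e-08, limma), with no overlap. MIR17HG, on chromosome 13 (91347686 to 91397592, plus strand), had 167, 159 and 199 against 316, 287 and 275, and 181, 173 and 214 against 316, 287 and 347. The hairpin values lay above in both tables, with a log2 fold change of 0.74 with either (standard errors 0.11 and 0.12, adjusted p = 0.000257 and 0.000260, limma).

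**Figure D4:**
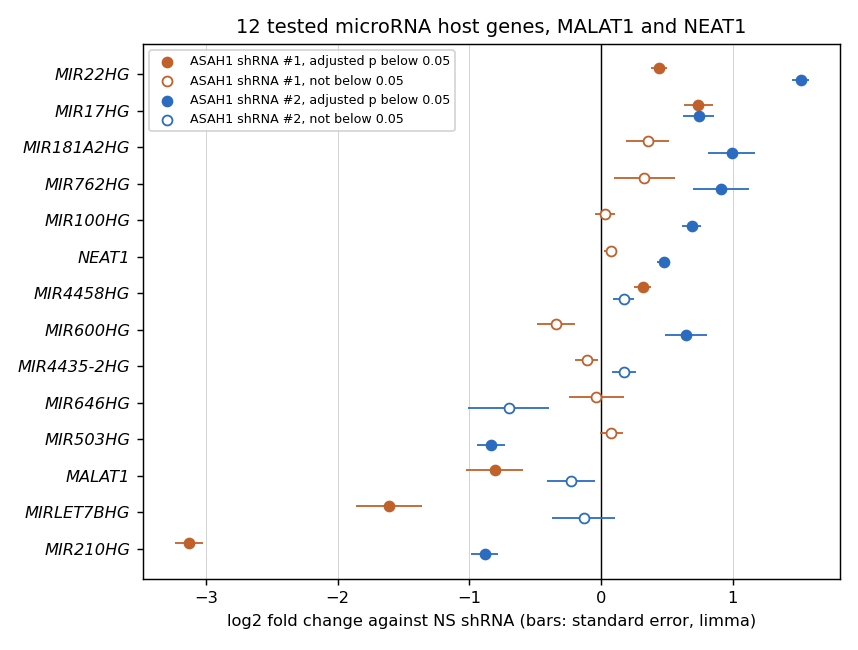
Log2 fold change against NS shRNA (horizontal axis) of the 12 tested microRNA hosts with MALAT1 and NEAT1, with the standard error from limma as bars. Filled points passed an adjusted p of 0.05. MIR210HG at -3.13 with shRNA #1 lies furthest from 0, and MIR22HG at 1.52 with shRNA #2 is the highest.

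The other microRNA hosts passed with 1 hairpin or with neither. MIRLET7BHG, which carries let-7b and let-7a-3, fell by 1.61 with shRNA #1 (adjusted p = 0.000331, limma) and had -0.13 with shRNA #2 (adjusted p = 0.646). MIR4458HG, host of miR-4458, rose by 0.32 with shRNA #1 (adjusted p = 0.00235) and had 0.17 with shRNA #2 (adjusted p = 0.0723, limma), which passed in the joint fit of all 9 libraries (adjusted p = 0.0387) and in limma without a trend (adjusted p = 0.0386). MIR100HG, host of miR-100, let-7a-2 and miR-125b-1, rose by 0.69 with shRNA #2 (adjusted p = 1.44e-05, limma) and had 0.03 with shRNA #1. MIR181A2HG (0.99), MIR762HG (0.91) and MIR600HG (0.65) rose with shRNA #2, and MIR503HG, the host of miR-503, fell by 0.83 (adjusted p = 0.000606, 0.00318, 0.00462 and 4.54e-05, limma). With shRNA #1 these 4 had 0.36, 0.33, -0.34 and 0.08 (adjusted p = 0.0793, 0.237, 0.0564 and 0.449, limma). In limma without a trend MIR181A2HG (0.36, adjusted p = 0.0188) and MIR600HG (-0.34, adjusted p = 0.0469) passed with shRNA #1, the latter opposite in sign to its rise with shRNA #2. MIR4435-2HG (-0.11 and 0.18) and MIR646HG (-0.03 and -0.70) passed in neither. MIR4435-2HG passed with shRNA #1 without NS shRNA replicate 3 (-0.20), and MIR646HG with shRNA #2 without shRNA #2 replicate 1 (-0.93) and in the joint fit of all 9 libraries (-0.70, adjusted p = 0.0453, limma). The 25 microRNA rows inside the tested hosts had at most 10 reads in a library, below what the filter asks, and they were not tested.

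Of 10 genes of microRNA processing and Argonaute proteins, 4 rose and 3 fell with shRNA #1, and 6 rose and 1 fell with shRNA #2. Over all genes 32.8% rose and 33.3% fell with shRNA #1, close to this list's 40% and 30%, and 33.5% rose and 33.4% fell with shRNA #2, against 60% and 10%. DICER1 fell by 0.51 with shRNA #1 (adjusted p = 0.00136) and rose by 0.78 with shRNA #2 (adjusted p = 1.83e-05, limma). DGCR8, the partner of Drosha, likewise had -0.57 and 0.27 (adjusted p = 4.72e-05 and 0.00971, limma). XPO5, which exports the hairpins from the nucleus, rose by 1.10 and 1.18 (adjusted p = 7.93e-07 and 1.53e-07, limma).

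MALAT1, on chromosome 11 (65497640 to 65508073, plus strand), had 117350, 80198 and 65975 with NS shRNA and 63499, 37802 and 48415 with shRNA #1. In the shRNA #2 table it had 126625, 87055 and 71134 with NS shRNA and 66317, 77690 and 95191 with the hairpin. The shRNA #1 libraries lay below all NS shRNA libraries by a small margin, and the shRNA #2 libraries overlapped with them. MALAT1 fell by 0.81 with shRNA #1 (standard error 0.22, adjusted p = 0.00849) and had -0.23 with shRNA #2 (standard error 0.18, adjusted p = 0.299, limma). NS shRNA replicate 1 had the highest value in each table, and without it the log2 fold change with shRNA #2 was 0.00, while without NS shRNA replicate 3 it was -0.41 (adjusted p = 0.0254, limma). MALAT1 has no poly(A) tail, and the sources describe both oligo-dT selection and removal of ribosomal RNA for these libraries. How far its level follows the selection in each library was not tested.

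NEAT1, on chromosome 11 (65422774 to 65445540, plus strand), varied little between replicates. It had 58579, 54379 and 55436 with NS shRNA against 56639, 60657 and 59929 with shRNA #1, and 63209, 59029 and 59771 against 83602, 83461 and 86313 with shRNA #2. The shRNA #1 groups overlapped and the shRNA #2 groups did not, with log2 fold changes of 0.07 (standard error 0.05, adjusted p = 0.197) and 0.48 (standard error 0.05, adjusted p = 1.16e-05, limma). Of 11 proteins of paraspeckles, the bodies that NEAT1 builds, 4 rose and 4 fell with shRNA #1, and 7 rose and 3 fell with shRNA #2. The shares that rose were 36.4% and 63.6%, against 32.8% and 33.5% of all genes, and those that fell 36.4% and 27.3%, against 33.3% and 33.4%. SFPQ had -0.03 (adjusted p = 0.609) and rose by 0.38 with shRNA #2 (adjusted p = 4.93e-05), and NONO fell by 0.49 and 0.21 (adjusted p = 1.97e-05 and 0.00710, limma).

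**Figure D5:**
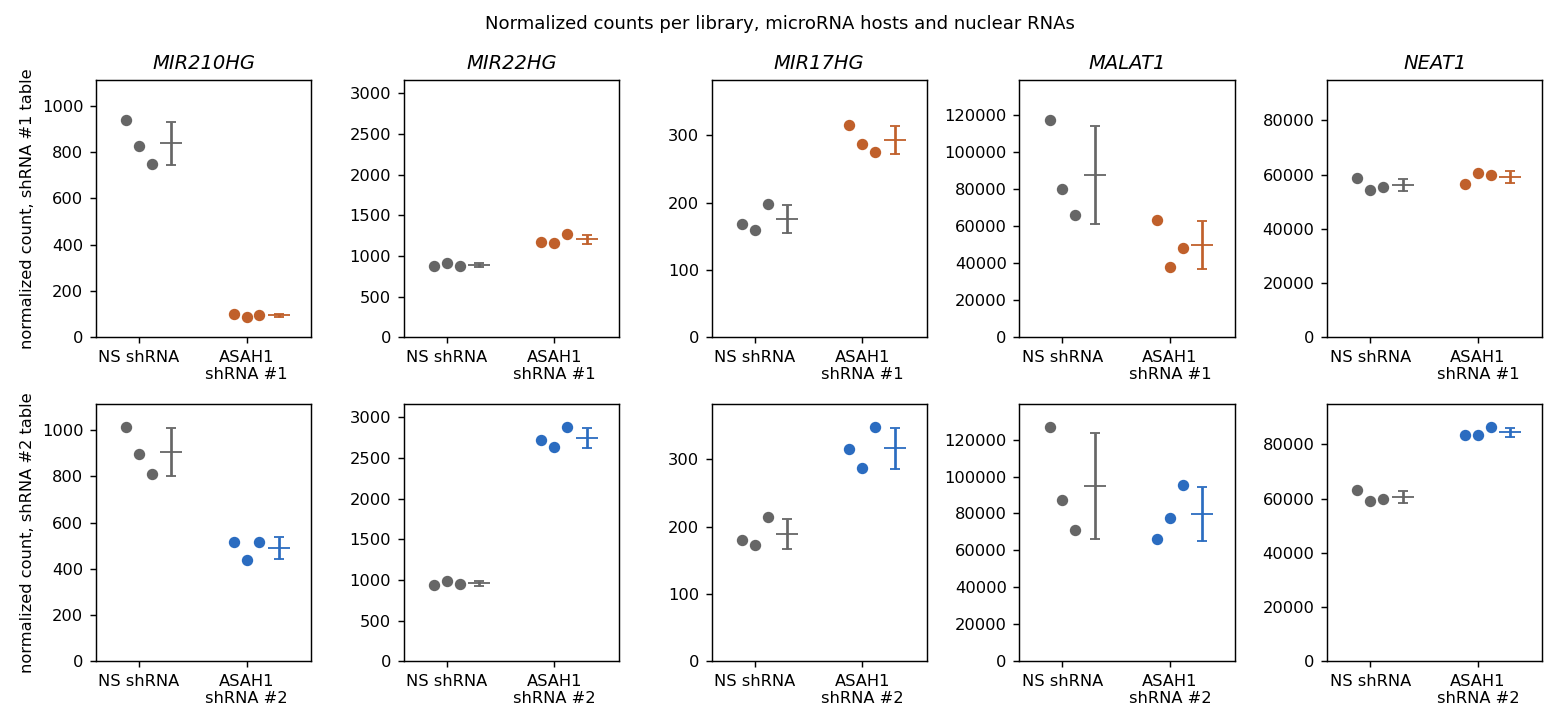
Normalized counts per library (vertical axes from 0, points) of MIR210HG, MIR22HG, MIR17HG, MALAT1 and NEAT1, with the mean and SD of 3 libraries beside them, the shRNA #1 table above and the shRNA #2 table below. MALAT1 ranges from 65975 to 117350 in the NS shRNA libraries of the upper row, while NEAT1 stays between 54379 and 58579.

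Members were also set hairpin against hairpin, with edgeR (quasi-likelihood) on reads recovered from all 9 libraries. Of the 22 snoRNA hosts, 9 were higher and 6 lower with shRNA #2 than with shRNA #1, while 31.4% of all 14381 genes tested were higher and 32.5% lower (63.9% in either direction). Of the 12 microRNA hosts, 8 were higher and 2 lower. Among the hosts that rose most with both hairpins, ZFAS1 (0.14, standard error 0.09, adjusted p = 0.176) and SNHG15 (-0.06, standard error 0.12, adjusted p = 0.677) did not pass, while SNHG17 (0.57, adjusted p = 0.00138) and GAS5 (0.33, adjusted p = 0.00304, edgeR) were higher with shRNA #2. MIR17HG had a log2 ratio of -0.00 (standard error 0.11, adjusted p = 0.984, edgeR).

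Of the tested snoRNA hosts, 6 had a protein-coding gene that starts within 1000 bases on the other strand, and its change was read beside theirs. With shRNA #1 4 of these neighbours rose and 2 did not pass, and with shRNA #2 4 rose, 1 fell and 1 did not pass, where 32.8% and 33.5% of all genes rose and 33.3% and 33.4% fell. ZBTB37 beside GAS5 had 0.87 and -0.28 (adjusted p = 0.000602 and 0.299, limma), where GAS5 rose with both. RPS2, a ribosomal protein gene beside SNHG9, rose by 0.27 and 0.61 (adjusted p = 0.0368 and 0.000234, limma). TRAF7 beside SNHG19 had 0.10 and -0.20 (adjusted p = 0.0619 and 0.00857, limma). WDR81, the neighbour of MIR22HG, rose by 1.01 with shRNA #1 and fell by 0.27 with shRNA #2 (adjusted p = 8.90e-07 and 0.0118, limma), while MIR22HG rose with both.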

How the data were processed

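The NS shRNA, ASAH1 shRNA #1 and ASAH1 shRNA #2 groups have 3 libraries each. The authors used Trimmomatic 0.36, STAR 2.7.1a on hg38, htseq-count in reverse-strand mode over UCSC genes and DESeq2 1.28 for normalization, per the labels and methods, another paragraph of which names Bowtie2, RSEM, TMM and edgeR. The labels name both oligo-dT selection and ribosomal RNA removal. The deposited values are a signal: gene reads over 1 size factor for each library, in 1 table per hairpin. The authors' own columns of mean, log2 fold change, standard error, Wald statistic, p-value and adjusted p-value were not used, and 0 per-sample columns were left out.

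In every library 100% of values came out as whole reads (tolerance 0.01), so reads were recovered, and 28 symbols turned into dates in 1 table were taken from the other. Each comparison was fitted by limma 3.58.1 (trend on, two-sided) on log2(value + 1), keeping genes whose mean reached 10. A fold change on this scale understates the change of low genes. The hairpins were compared by edgeR 4.0.16 with TMM on the recovered reads. R 4.3.3, Python 3.11.15, pandas 2.3.3 and matplotlib 3.10.9 were used, and the fits were tested on simulated data. As alternatives, the pseudocount was set to 0.1 or 5, the filter to none or to a mean of at least 50, and the test to limma without a trend or with upper quartile scaling, edgeR, DESeq2 1.42.0, a joint fit of the 9 libraries, a block for the replicate number and each library left out. Left-out and count-tool values of snoRNA rows were added after seeing the data. On the recovered reads edgeR called 9476 genes with shRNA #1 and 9554 with shRNA #2, and limma on the deposited values 9479 and 9538.

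Values per library are given for GAS5, ZFAS1, DANCR, MALAT1, NEAT1, MEG3 and H19 and for each host that passed in both comparisons with a log2 fold change of at least 0.5 in size in at least 1. Members, lists and tests were chosen with earlier results of these data known. Neighbouring genes and snoRNA rows named with their values were chosen after those values were seen. Positions are from GENCODE v44 (hg38), which placed 60 of 65 members, and sequences from RefSeq (GRCh38.p14), with a start window for 52.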

Additional observations from a re-analysis of the deposited data

Results flagged for a closer look

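The members below differed between the hairpins by edgeR (quasi-likelihood, adjusted p below 0.05, recovered reads), and each value is the log2 ratio of ASAH1 shRNA #2 to ASAH1 shRNA #1. Of all genes tested, 63.9% differed in this way, so the number of members that did is not itself unusual. The snoRNA hosts lower with shRNA #2 were SNHG11 (-0.96), SNHG9 (-0.70), SNHG21 (-0.66), SNHG16 (-0.44), SNHG19 (-0.43) and DANCR (-0.33). Those higher with shRNA #2 were SNHG18 (1.14), SNHG8 (0.74), SNHG10 (0.67), SNHG17 (0.57), SNHG7 (0.57), SNHG3 (0.52), SNHG5 (0.43), GAS5 (0.33) and SNHG1 (0.13). Among the microRNA hosts, MIR503HG (-0.93) and MIR4458HG (-0.16) were lower, and MIR210HG (2.26), MIRLET7BHG (1.47), MIR22HG (1.07), MIR600HG (1.00), MIR100HG (0.65), MIR181A2HG (0.64), MIR762HG (0.55) and MIR4435-2HG (0.27) were higher. MALAT1 (0.55) and NEAT1 (0.39) were higher as well.

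SNHG18 is the member that passed with opposite signs against NS shRNA. MIR210HG fell with both hairpins and its difference between them was the largest. Some differences did not pass once 1 library was left out. MIR4458HG was lost without any of the 9 libraries (-0.18 to -0.12). SNHG9 was lost without NS shRNA replicate 1, any shRNA #1 library, or shRNA #2 replicate 1 or 2 (-0.74 to -0.54). SNHG1 was lost without NS shRNA replicate 2, any shRNA #1 library or shRNA #2 replicate 2 (0.083 to 0.14). MIR762HG was lost without shRNA #1 replicate 1 or 3 or shRNA #2 replicate 1 or 2 (0.48 to 0.58), and SNHG5 without shRNA #1 replicate 1 or 2 or shRNA #2 replicate 3 (0.29 to 0.42). MIR4435-2HG was lost without the same 3 libraries as SNHG5 (0.20 to 0.24), and SNHG19 without shRNA #1 replicate 3 or shRNA #2 replicate 1 or 2 (-0.46 to -0.31). Those of MALAT1 are given with the processing. With upper quartile scaling SNHG1 (0.059, adjusted p = 0.358), MIR762HG (0.47, adjusted p = 0.0566), SNHG5 (0.35, adjusted p = 0.0605) and MIR4435-2HG (0.20, adjusted p = 0.0841) did not pass in edgeR either, while MIR646HG did (-0.76, adjusted p = 0.0366). SNHG1 was also lost with a mean of at least 50 (0.12, adjusted p = 0.0659) and in the replicate block (0.13, adjusted p = 0.0848). SNHG9 was lost in DESeq2 (-0.70, adjusted p = 0.0636), with no filter (-0.69, adjusted p = 0.0521, edgeR) and in the replicate block (-0.70, adjusted p = 0.0774, edgeR). Outliers within a group were not looked for, since each group holds 3 libraries.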

How the results depend on the processing

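Of 108 log2 fold changes of tested members, 76 kept their direction and their side of the threshold under all alternatives. The sign turned in 11, the threshold was lost in 9 and gained in 13 under at least 1. The numbers of hosts that rose stayed within 1.5 times under all alternatives. Of snoRNA hosts lower with shRNA #1, 1 instead of 2 passed in limma without a trend and in the replicate block (SNHG6 being lost, adjusted p = 0.0969 and 0.0817). Leaving out 1 library gave 1 to 2. Of microRNA hosts lower with shRNA #2 than with shRNA #1, 1 instead of 2 passed with no filter, in DESeq2 and in the replicate block (MIR4458HG being lost), and 1 to 2 with 1 library left out. The replicate block took the snoRNA hosts that differed between hairpins to 8 higher and 5 lower. Libraries with the same number did not deviate together (correlations of -0.32 to -0.10), so the numbers gave no sign of pairing. Libraries with different numbers had correlations of -0.11 to 0.27, the highest for NS shRNA replicate 1 with shRNA #1 replicate 3. Deviations from a mean of 3 libraries sum to 0, so these correlations depend on each other. Their source was not tested.

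MALAT1 between hairpins did not pass in DESeq2 (0.56, adjusted p = 0.0913) or with upper quartile scaling (0.48, adjusted p = 0.0787), and ran from 0.38 to 0.76 with 1 library left out. It was lost without NS shRNA replicate 2, shRNA #1 replicate 2 or 3, or shRNA #2 replicate 2 or 3. MALAT1 with shRNA #2 ran from -0.41 to 0.0031. Signs turned only where values did not pass. With upper quartile scaling SNHG11 and SNHG25 with shRNA #2 were at -0.011 and -0.018, and SNHG20 between hairpins at -0.032. In DESeq2 SNHG25 with shRNA #2 was at -0.013 and MIR17HG between hairpins at 0.0035, with no filter at 0.0096. With 1 library left out, shRNA #1 values ran from -0.032 to 0.093 for MIR100HG, -0.15 to 0.079 for MIR646HG, -0.28 to 0.018 for SNHG19 and -0.089 to 0.54 for SNHG25. With shRNA #2 they ran from -0.32 to 0.10 for MIRLET7BHG, -0.13 to 0.15 for SNHG11 and -0.37 to 0.30 for SNHG25. Between hairpins they ran from -0.076 to 0.064 for MIR17HG, -0.17 to 0.047 for SNHG15 and -0.0052 to 0.12 for SNHG20. The cause of these changes was not tested. With 3 libraries a group, and rows near the minimum mean of 10, small differences were not detectable.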
